A study of Mus musculus with 9 samples.

Results

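Collagen processing and crosslinking genes encode the enzymes, chaperones, carriers and extracellular oxidases that turn a procollagen chain into a crosslinked fibre. They were examined in RNA of rat penile tissue as a list of 34 gene names, chosen by function. Of these, 33 were found among the 21124 genes of the tables, and all 33 passed the filter on low counts that left 15509 genes for testing. Pcolce2 was not analysed here. No measured value entered the choice of the list, but it was drawn up with earlier results of these data known.

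Rats of the Sham group (3 libraries) had the surgery with the major pelvic ganglia left intact. In the Injury group (3 libraries) the ganglia were clamped on both sides, which is a model of erectile dysfunction after nerve damage. In the Sacral NC group (3 libraries) clamping was followed by transplantation of sacral neural crest cells, made from human pluripotent stem cells per the title of the series. Tissue of all 3 groups was taken 4 weeks after surgery. No strain, age or mock transplantation is named in the labels, so in Sacral NC the cells and the procedure cannot be told apart.

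Collagen is built in the endoplasmic reticulum, where prolines are hydroxylated so that the triple helix is stable at body temperature and lysines are hydroxylated and glycosylated. Chaperones hold the helix until it leaves in large coated carriers, outside the cell proteinases cut off the end peptides, and lysyl oxidases, copper enzymes, then oxidise lysines so that neighbouring molecules bond. In the penis, collagen forms the tunica albuginea and the framework of the corpora cavernosa. Loss of SERPINH1, CRTAP, P3H1, PPIB, FKBP10, BMP1, TMEM38B, CREB3L1 or SPARC causes brittle bone disease in humans.

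Library totals ran from 15442190 to 18283418 counts. The members had between 172 and 534983 reads in a library. Of all reads, skeletal muscle genes held 2.82% in library Injury 2, 1.02% in Sham 1, 0.265% in Sacral NC 2 and 0.220% in Injury 1, and at most 0.0168% in the other 5 libraries. The labels also give a cell type of pluripotent stem cells, but Pou5f1 and Lin28a, genes of that state, had at most 4 reads in any library, while all markers listed for smooth muscle, endothelium, pericytes and Schwann cells had reads in every library. Levels below are CPM, read counts scaled to library size with TMM factors. They are compared between samples and not between genes, because transcript lengths were not used here.

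Taken as a share of all reads, the 33 genes made up 1.25% ± 0.0816 in Sham, 3.35% ± 0.253 in Injury and 1.23% ± 0.311 in Sacral NC (SD, n = 3 each). Most of this was Sparc, and without it the shares were 0.428% ± 0.0165, 0.675% ± 0.0372 and 0.434% ± 0.0232. Mean levels were highest in Injury for 30 of the 33 genes and lowest there for the other 3, Tll1, P3h2 and Colgalt2. In 23 of 33 genes every Injury library lay above all 6 Sham and Sacral NC libraries, against 8.87% of all genes tested.

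**Figure D1:**
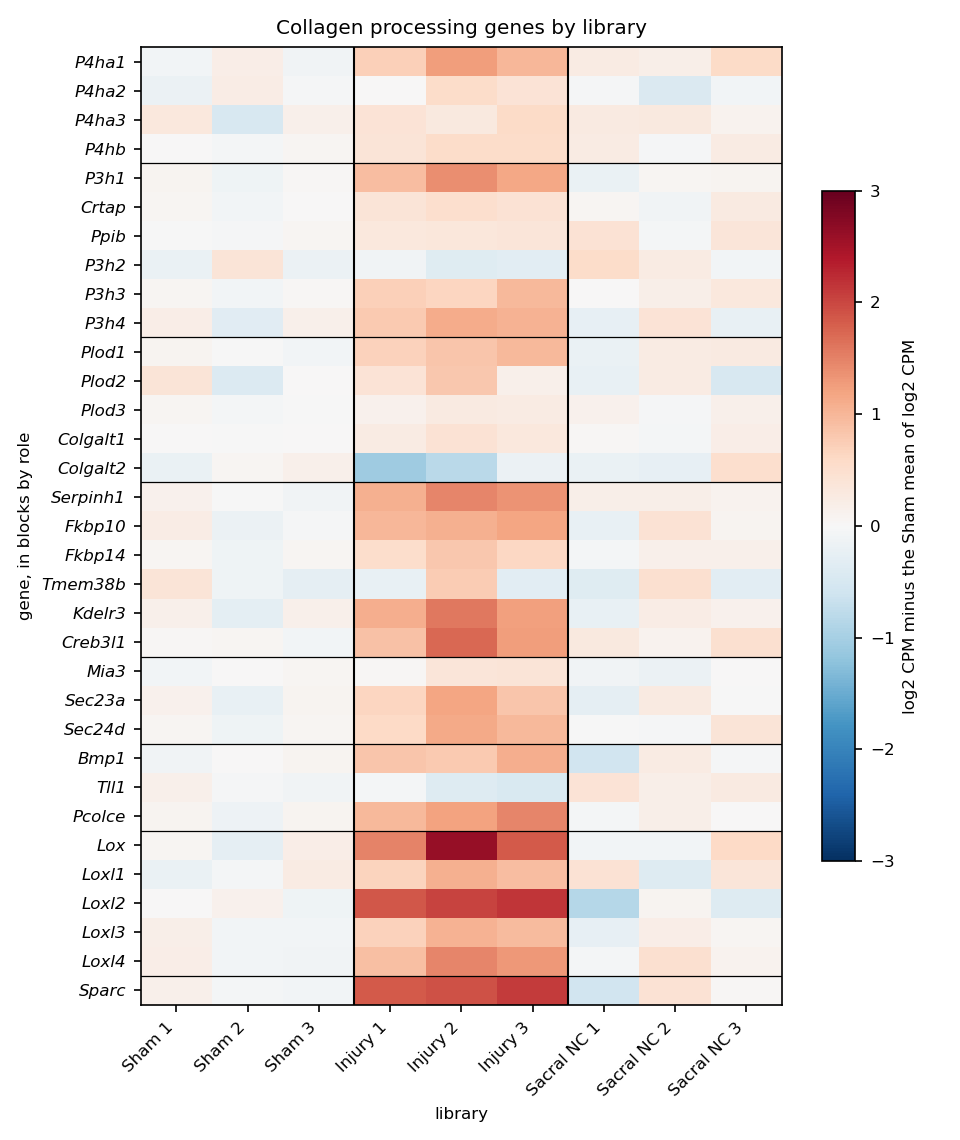
Level of each of the 33 genes (rows, in blocks by role) in each of the 9 libraries (columns), as log2 CPM minus the mean log2 CPM of the 3 Sham libraries, red for higher and blue for lower. The Injury columns are red in most rows, most deeply for Lox, Loxl2 and Sparc, and the Sacral NC columns are pale like the Sham columns.

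Clamping was examined by setting Injury against Sham. By the edgeR quasi-likelihood test, 19 of 33 members were higher in Injury at an adjusted p under 0.05, against 3.09% of all genes tested, and 0 were lower, against 1.34%. The rises were between 1.57-fold (Fkbp14) and 4.14-fold (Lox). The median log2 change of the 33 members was 0.89, against −0.04 over all genes tested. Libraries of the groups did not overlap, with Injury higher, in 25 members against 15.4% of all genes, and with Injury lower in 0 members against 19.9%. The calls rest on few libraries: 14 members were called without Sham 1, 3 without Sham 2, 0 without Sham 3, 16, 9 and 7 without Injury 1, 2 and 3, and 0 without the 4 libraries rich in muscle reads, which leaves 1 Injury library. Calls over all genes fell in the same fits, from 479 higher to 52 without Sham 2, 16 without Sham 3, 117 and 83 without Injury 2 and 3, and 1 without the muscle-rich libraries. In each of the 18 alternatives the 19 members kept a positive log2 change, of at least 0.58.

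In the second comparison, Sacral NC against Injury, 18 of 33 members were lower after transplantation, against 3.70% of all genes tested, and 1 was higher, against 3.26%. All 18 were among the 19 that were higher in Injury than in Sham, and the comparisons share the Injury libraries, so this overlap is no separate evidence. The falls were between 0.675 (Fkbp14) and 0.197 (Loxl2) of the Injury level. Members had a median log2 change of −0.71, against 0.03 over all genes. Groups did not overlap, with Sacral NC lower, in 25 members against 12.4% of all genes, and with Sacral NC higher in 2, Tll1 and P3h2, against 14.1%. The count of called members was 10 without Injury 2, 7 without Injury 3, 9 without Sacral NC 1, 6 with only the Sacral NC and Injury libraries in the fit, and 1, Loxl2, without the 4 libraries rich in muscle reads. Over all genes, the 574 lower calls became 256, 209, 180, 172 and 28 in these 5 fits.

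Sacral NC against Sham, the third comparison, asks how far transplanted rats were from rats that were never clamped. Of the 33 members 0 were called higher and 0 lower, as for all genes tested, of which 0% were called in either direction by edgeR. An unadjusted p under 0.05 was reached by 0 of 33 members and by 1232 of 15509 genes, and DESeq2 called 0 members and, of all genes, 41 higher and 20 lower. Log2 changes ran from −0.34 (Loxl2) to 0.33 (P4ha1), and their 95% intervals together spanned −0.83 to 0.86. Half-widths of these intervals ran from 0.18 (Plod3) to 0.79 (Tmem38b), with a median of 0.39. Sacral NC lay above Sham without overlap in 2 members, Tll1 and Creb3l1, against 6.72% of all genes, and below it in 0, against 6.53%. For the other 31 members the groups overlapped.

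**Figure D2:**
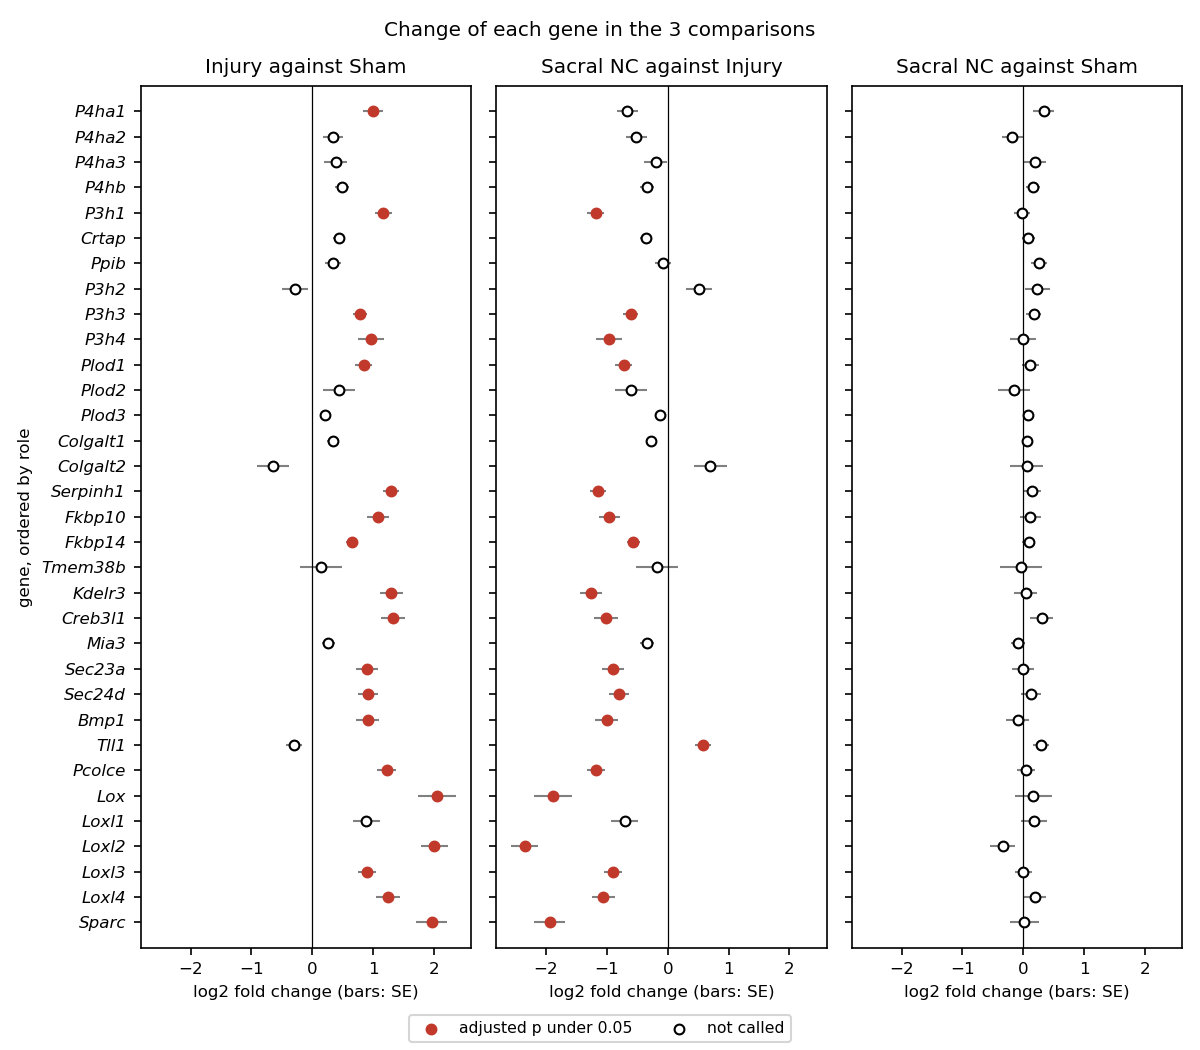
Log2 fold change (x axis, with SE bars) of the 33 genes (y axis, ordered by role) in the 3 comparisons, with filled points for an adjusted p under 0.05. Filled points lie right of 0 for 19 genes in Injury against Sham and left of 0 for 18 in Sacral NC against Injury, where Tll1 is the 1 filled point on the right, and there are 0 filled points in Sacral NC against Sham.

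Prolyl 4-hydroxylase, which makes the 4-hydroxyproline of the helix, is built of catalytic alpha subunits (P4ha1, P4ha2, P4ha3) and the beta subunit P4hb, which is also protein disulfide isomerase. Of these 4 genes P4ha1 was called higher after clamping, and the other 3 had positive log2 changes that did not pass. P4ha1 had 110.5, 135.6 and 108.6 CPM in Sham, 193.5, 281.3 and 234.0 in Injury and 139.6, 132.9 and 174.4 in Sacral NC. Injury was above both other groups in every library, with a log2 change of 1.00 ± 0.17 from Sham (SE, adjusted p = 0.0194). This rise was called in 4 of the 9 fits that left out a library. From Injury to Sacral NC the log2 change of P4ha1 was −0.67 ± 0.17, with an adjusted p of 0.0510 that missed the threshold, and this is the 1 member called after clamping that was not called in the second comparison. P4hb had 523.0 ± 23.2 CPM in Sham and 735.4 ± 48.7 in Injury (SD, n = 3) without overlap, and its log2 change of 0.49 ± 0.12 missed the threshold (adjusted p = 0.0531). P4hb was called in 8 of the 18 alternatives, with an adjusted p of 8.97e-05 by DESeq2. P4ha2 and P4ha3 had log2 changes of 0.34 ± 0.17 and 0.39 ± 0.19 in Injury, with overlapping libraries.

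The prolyl 3-hydroxylase complex of P3h1 (enzyme), Crtap (its partner) and Ppib (cyclophilin B) modifies single prolines of fibrillar collagen and folds the chain. P3h1 (ENSRNOG00000053991, chromosome 5, 132841928 to 132856659) had 46.7, 40.1 and 45.1 CPM in Sham, 83.0, 114.9 and 98.6 in Injury and 38.1, 45.4 and 46.8 in Sacral NC. The Injury libraries stood clear of both other groups, which overlapped. P3h1 rose 2.25-fold with clamping (log2 change 1.17 ± 0.14, adjusted p = 0.00746) and fell to 0.440 after transplantation (−1.19 ± 0.14, adjusted p = 0.00625).

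The partners of P3h1 were not called. Crtap had 73.8 ± 3.30 CPM in Sham, 100.1 ± 4.79 in Injury and 78.1 ± 10.2 in Sacral NC (SD, n = 3 each), with a log2 change of 0.44 ± 0.10 in Injury (adjusted p = 0.0504), and was called in 8 of the 18 alternatives. For Ppib the log2 change was 0.34 ± 0.13 (adjusted p = 0.179). Whether the changes of these 3 genes differ was not tested.

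P3h3 and P3h4, which in mouse form a complex with lysyl hydroxylase 1, were both called in both comparisons. P3h3 rose 1.72-fold (log2 change 0.78 ± 0.12, adjusted p = 0.0149) and fell to 0.654. P3h4 had 33.8, 23.2 and 32.6 CPM in Sham, 50.9, 64.2 and 60.3 in Injury and 25.0, 39.4 and 25.1 in Sacral NC, a rise of 1.96-fold (0.97 ± 0.21, adjusted p = 0.0426) and a fall to 0.510. In each comparison P3h4 was called in 2 of the 9 fits that left out a library. The annotated span of Eif1, on the other strand, covers the whole of P3h4, so its reads could be shared. P3h2, which acts on basement membrane collagen, did not follow. It had 13.7, 20.4 and 13.9 CPM in Sham, 14.5, 12.3 and 12.6 in Injury and 23.0, 18.5 and 14.7 in Sacral NC, and was called in neither comparison (log2 change −0.28 ± 0.21 in Injury).

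Lysyl hydroxylases prepare the crosslink sites. Plod1, which acts on lysines of the helix, had 111.2, 104.1 and 99.9 CPM in Sham, 169.7, 187.9 and 207.3 in Injury and 91.4, 124.9 and 125.7 in Sacral NC. It rose 1.79-fold in Injury (log2 change 0.84 ± 0.14, adjusted p = 0.0180) and fell to 0.606 of Injury in Sacral NC (adjusted p = 0.0216), and was the 1 of 5 genes for lysine modification to be called. Plod3, which also adds glucose to galactose on hydroxylysine, had 53.2 ± 1.98 CPM in Sham and 61.6 ± 2.97 in Injury (SD, n = 3). These libraries did not overlap, with a log2 change of 0.21 ± 0.08 (adjusted p = 0.168). The span of Plod3 is overlapped by Ap1s1 over 10575 bases on the other strand.

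The galactosyltransferases Colgalt1 and Colgalt2, which start the sugar chain, had log2 changes of opposite sign. Colgalt1 had 79.5 ± 1.08 CPM in Sham and 100.3 ± 6.36 in Injury without overlap (log2 change 0.34 ± 0.09, adjusted p = 0.0694). It was called in 4 of the 18 alternatives, with an adjusted p of 0.0110 by DESeq2. Colgalt2 had 66.9, 80.0 and 86.5 CPM in Sham, 36.7, 43.9 and 68.5 in Injury and 67.6, 65.6 and 109.0 in Sacral NC. Injury 1 and 2 were low and Injury 3 overlapped Sham, and neither change of Colgalt2 passed (−0.64 ± 0.27 and 0.70 ± 0.27, adjusted p = 0.209 and 0.145).

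For Plod2 and Tmem38b the groups overlapped widely. Plod2, the hydroxylase of the telopeptide lysines, had 64.4, 37.0 and 49.4 CPM in Sham, 65.1, 85.9 and 54.1 in Injury and 42.1, 57.9 and 35.3 in Sacral NC. Tmem38b, a potassium channel of the endoplasmic reticulum that balances calcium release, had 41.8, 29.6 and 26.8 CPM in Sham, 27.7, 54.4 and 25.9 in Injury and 25.0, 45.1 and 25.8 in Sacral NC. In both genes the highest library of each group was the one with the most skeletal muscle reads, Sham 1, Injury 2 and Sacral NC 2. The same order was found in 9 of the 33 members, the others being P3h4, Serpinh1, Loxl3, Loxl4, Fkbp14, Sec23a and Kdelr3. This order was not counted over all genes, so it is no result about the members. Of the 19 genes of the skeletal muscle list, 17 were found, 3 of them at 0 in some library, with summed levels of 81.8 to 9518 CPM in Sham, 188.2 to 33153 in Injury and 61.2 to 2495 in Sacral NC. Neither gene was called (log2 changes 0.44 ± 0.26 for Plod2 and 0.14 ± 0.35 for Tmem38b in Injury). With a skeletal muscle score as covariate the log2 changes were 0.23 for Plod2 and −0.20 for Tmem38b, and neither was called (adjusted p = 0.415 and 0.612).

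**Figure D3:**
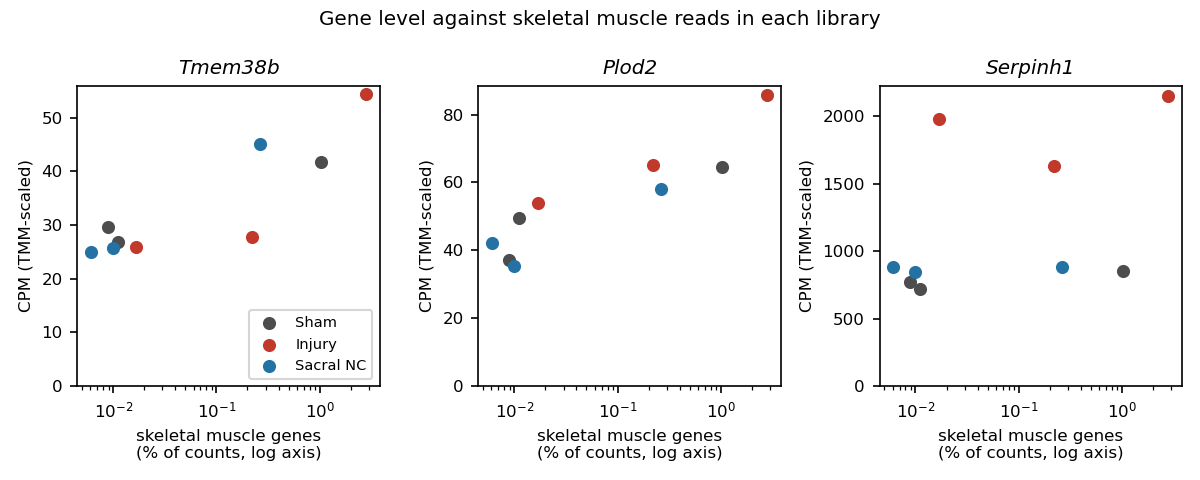
CPM of Tmem38b, Plod2 and Serpinh1 (y axes) against the percent of all counts in skeletal muscle genes (x axes, log scale), with a point for each of the 9 libraries, coloured by group. Tmem38b is highest in Injury 2, at 54.4 CPM with 2.82% muscle reads, and Serpinh1 is also highest there, at 2154 CPM, but all its Injury libraries, from 1634 CPM, lie above the other groups.

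Serpinh1 (ENSRNOG00000016831, chromosome 1, 153643510 to 153650801) encodes HSP47, the chaperone that binds only collagen. Its level was 856.8, 771.3 and 721.2 CPM in Sham, 1634, 2154 and 1981 in Injury and 881.4, 883.8 and 844.6 in Sacral NC. Each Injury library was above 1600 CPM and each of the other 6 below 900. The log2 change was 1.30 ± 0.14 after clamping (adjusted p = 0.00645, the lowest of the 33 members) and −1.14 ± 0.14 after transplantation (adjusted p = 0.00625). Against Sham, Sacral NC differed by 0.15 on the log2 scale, with a 95% interval of −0.16 to 0.46.

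The prolyl isomerases Fkbp10 and Fkbp14 rose 2.11-fold (log2 change 1.08 ± 0.17, adjusted p = 0.0169) and 1.57-fold (0.65 ± 0.10, adjusted p = 0.0166). Fkbp10 had 174.3, 133.7 and 146.2 CPM in Sham, 298.6, 317.5 and 343.1 in Injury and 129.6, 203.7 and 158.7 in Sacral NC, and fell to 0.513 of Injury. Nearly all of Fkbp10, 81202 bases, lies within the annotated span of Eif1 on the same strand. Eif1 had 436.4 to 453.5 CPM in Sham, 441.6 to 515.6 in Injury and 540.1 to 617.1 in Sacral NC. Klhl10 on the same strand and Acly, Nt5c3b and Klhl11 on the other also overlap Fkbp10. Whether reads of these genes count toward Fkbp10 was not tested. Fkbp14 had 69.6, 61.3 and 69.3 CPM in Sham, 96.6, 115.8 and 102.7 in Injury and 63.6, 74.5 and 74.5 in Sacral NC, and fell to 0.675 of Injury.

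Kdelr3 encodes a receptor that carries escaped resident proteins back to the endoplasmic reticulum. Its CPM were 73.9, 53.6 and 73.1 in Sham, 140.4, 198.6 and 154.7 in Injury and 56.4, 77.1 and 72.5 in Sacral NC, with log2 changes of 1.30 ± 0.19 (adjusted p = 0.0128) and −1.26 ± 0.19 (adjusted p = 0.00924). Ddx17, on the other strand, overlaps Kdelr3 over 12156 bases. Ddx17 had 7930 to 12164 reads in a library and Kdelr3 937 to 2865, and whether reads are shared was not tested. Creb3l1 encodes a membrane-bound transcription factor that activates Col1a1 in mouse bone. It had 59.0, 59.9 and 54.8 CPM in Sham, 106.8, 189.7 and 138.1 in Injury and 70.8, 62.4 and 81.0 in Sacral NC. Creb3l1 rose 2.50-fold (log2 change 1.32 ± 0.20, adjusted p = 0.0139) and fell to 0.493 of Injury (adjusted p = 0.0216). All 3 Sacral NC libraries stayed above the Sham libraries, by a log2 difference of 0.30 ± 0.19 that did not pass (adjusted p = 0.688).

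Export in coated carriers needs Mia3 (TANGO1), which links procollagen to the coat, and the coat proteins Sec23a and Sec24d. Sec23a had 120.4, 94.0 and 115.3 CPM in Sham, 171.3, 247.5 and 194.5 in Injury and 90.6, 130.8 and 108.6 in Sacral NC. It rose 1.86-fold (log2 change 0.90 ± 0.18, adjusted p = 0.0325) and fell to 0.538. Sec24d went from 67.5, 59.2 and 67.1 CPM in Sham to 97.3, 142.5 and 126.8 in Injury and was 63.8, 63.2 and 84.5 in Sacral NC (log2 change 0.92 ± 0.16 in Injury, adjusted p = 0.0223, and 0.577 of Injury after transplantation). In both coat genes Injury 2 was the highest library and Injury lay wholly above the other groups. Of the 9 fits that left out a library, the rise was called in 3 for Sec23a and 4 for Sec24d. The fall was called in 4 for Sec23a and 5 for Sec24d. The carrier gene Mia3 had 172.9 ± 9.36 CPM in Sham, 208.0 ± 27.3 in Injury and 163.3 ± 10.9 in Sacral NC (SD, n = 3), with overlap between Sham and Injury and a log2 change of 0.27 ± 0.11 (adjusted p = 0.223).

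Bmp1 and Tll1 encode related proteinases that remove the carboxy-terminal propeptide, and Pcolce encodes the protein that speeds this cut. Pcolce had 340.7, 287.8 and 337.8 CPM in Sham, 626.1, 744.4 and 880.5 in Injury and 308.5, 362.6 and 323.7 in Sacral NC. It rose 2.33-fold (log2 change 1.22 ± 0.15, adjusted p = 0.00847) and fell to 0.442 (adjusted p = 0.00699). Bmp1 had 130.9, 139.8 and 149.0 CPM in Sham, 250.1, 241.9 and 295.5 in Injury and 93.1, 164.4 and 135.7 in Sacral NC. It had a log2 change of 0.91 ± 0.19 (adjusted p = 0.0376) and a fall to 0.499 of Injury (adjusted p = 0.0220), and the Sacral NC libraries spread more widely than those of Sham. The rise of Bmp1 was called in 2 of the 9 fits that left out a library, and the fall in 5.

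Tll1 was the 1 member higher in Sacral NC than in Injury. It had 28.9, 25.0 and 23.9 CPM in Sham, 24.6, 19.8 and 18.9 in Injury and 34.5, 29.3 and 31.0 in Sacral NC. Sacral NC lay above both other groups, and Sham and Injury overlapped. The log2 change from Injury was 0.58 ± 0.13 (adjusted p = 0.0368), that from Sham 0.29 ± 0.13 (adjusted p = 0.630), and that of Injury against Sham −0.30 ± 0.13 (adjusted p = 0.232). The call was lost in 6 of the 9 fits that left out a library.

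Of the 5 lysyl oxidase genes 4 rose in Injury and Loxl1 did not pass, with a median log2 change of 1.24 over the family. Lox, the founding member, had 40.8, 32.2 and 44.8 CPM in Sham, 109.8, 238.1 and 140.2 in Injury and 36.9, 36.8 and 58.5 in Sacral NC. The Injury libraries spread widely, with Injury 2 far above the others, and did not overlap the other groups. Lox rose 4.14-fold (log2 change 2.05 ± 0.31, adjusted p = 0.0150) and fell to 0.271 of Injury (−1.88 ± 0.31, adjusted p = 0.0140). Without Injury 2 its log2 change was 1.67.

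Loxl2 (ENSRNOG00000016758, chromosome 15, 44683880 to 44773067), an oxidase that also acts on basement membrane collagen, had 114.8, 122.9 and 102.6 CPM in Sham, 410.5, 457.7 and 499.7 in Injury and 62.2, 119.4 and 87.2 in Sacral NC. Injury libraries agreed closely, and Sacral NC 1 and 3 lay below every Sham library. The log2 change was 2.01 ± 0.22 with clamping (adjusted p = 0.00699) and −2.35 ± 0.22 with transplantation (adjusted p = 0.00331). Of the 19 members called in the second comparison it alone stayed called in all 18 alternatives. Against Sham, Sacral NC had a log2 difference of −0.34, with a 95% interval of −0.83 to 0.14.

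Loxl3 and Loxl4 had lower counts. Loxl3 had 30.5, 25.7 and 25.4 CPM in Sham, 44.0, 56.1 and 52.3 in Injury and 22.7 to 30.9 in Sacral NC (log2 changes 0.90 ± 0.14 and −0.90 ± 0.15, adjusted p = 0.0169 and 0.0127). Loxl4 had 12.3, 10.2 and 9.98 CPM in Sham, 20.2, 30.0 and 26.8 in Injury and 10.3, 15.0 and 11.7 in Sacral NC (1.24 ± 0.19 and −1.06 ± 0.19, adjusted p = 0.0162 and 0.0195). In both genes Injury lay above all other libraries. Loxl1, the oxidase tied to elastic fibres, had 57.9, 63.6 and 78.0 CPM in Sham, 104.5, 138.5 and 126.0 in Injury and 89.5, 50.8 and 85.1 in Sacral NC. Injury again lay above all other libraries, but the log2 change of Loxl1 from Sham, 0.89 ± 0.22, missed the threshold (adjusted p = 0.0619). It was called in 5 of the 18 alternatives, with an adjusted p of 0.00217 by DESeq2.

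Sparc (ENSRNOG00000012840, chromosome 10, 39516406 to 39538396) encodes a secreted glycoprotein that binds collagen and is needed for fibre assembly. It took 2.67% ± 0.240 of all counts in Injury, against 0.826% ± 0.0687 in Sham and 0.796% ± 0.290 in Sacral NC (SD, n = 3 each). In CPM it had 8422, 7259 and 7216 in Sham, 27440, 28795 and 32828 in Injury and 5141, 10285 and 7782 in Sacral NC. Sparc rose 3.89-fold (log2 change 1.96 ± 0.25, adjusted p = 0.00955) and fell to 0.261 of Injury (adjusted p = 0.00711). The Sacral NC libraries lay on both sides of Sham, with Sacral NC 1 lowest and Sacral NC 2 highest.

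**Figure D4:**
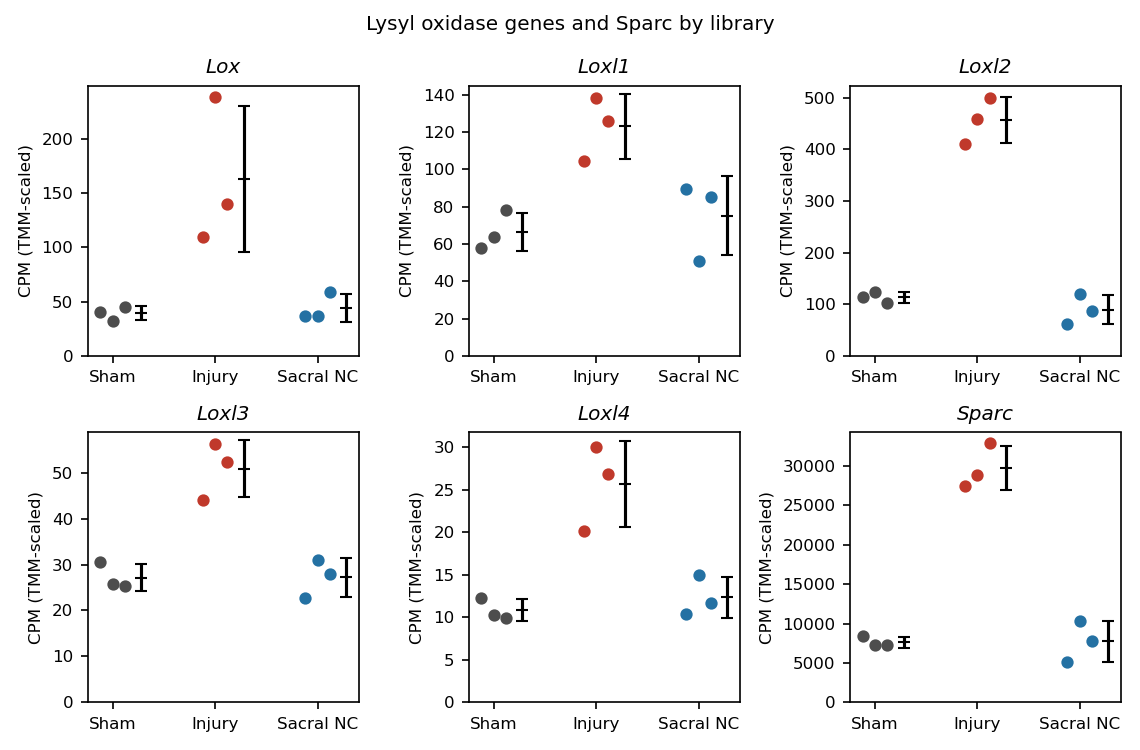
CPM of the 5 lysyl oxidase genes and Sparc (y axes, from 0) in each library of the 3 groups (points), with the mean and SD beside them. All Injury points lie above all Sham and Sacral NC points in each of the 6 genes, with Lox the most spread in Injury, from 109.8 to 238.1 CPM.

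Ratios of reads between related genes within a library do not depend on the scaling between libraries. The following pairs were picked after their values were seen and are given without a test. Bmp1 had 4.53, 5.59 and 6.24 reads per Tll1 read in Sham, 10.2, 12.2 and 15.6 in Injury and 2.70, 5.60 and 4.38 in Sacral NC. The P3h1 to P3h2 ratio was 3.42, 1.96 and 3.25 in Sham, 5.72, 9.36 and 7.80 in Injury and 1.66, 2.45 and 3.17 in Sacral NC. In both pairs every Injury library lay above every library of the other groups. Plod1 per Plod3 was 1.98 ± 0.0757, 3.05 ± 0.207 and 2.04 ± 0.424 in Sham, Injury and Sacral NC, and Serpinh1 per P4hb 1.50 ± 0.157, 2.61 ± 0.203 and 1.51 ± 0.189 (SD, n = 3 each).

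The pair of P4ha1 and P4ha2 differed from these in Sacral NC. P4ha1 had 2.40, 2.25 and 2.15 reads per P4ha2 read in Sham, 3.69, 3.69 and 3.37 in Injury and 2.75, 3.45 and 3.55 in Sacral NC. All 3 Sacral NC libraries were thus above all Sham libraries, and 2 of them lay within the Injury range.

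**Figure D5:**
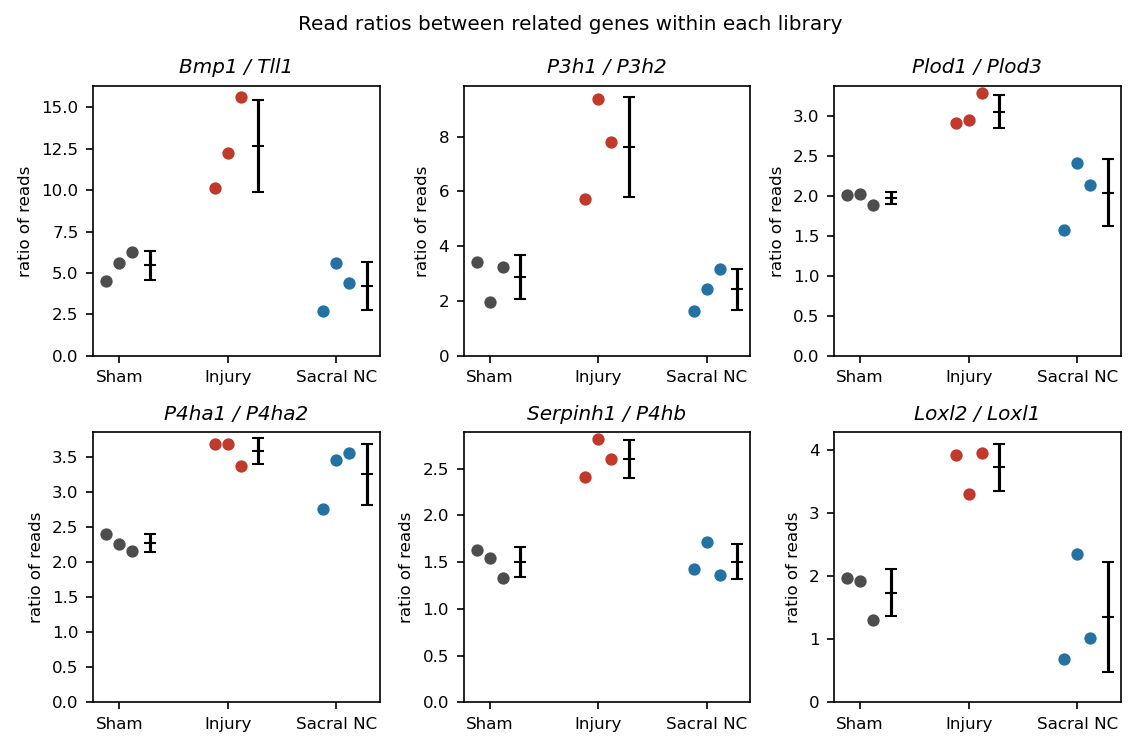
Ratio of reads of 6 gene pairs (y axes, from 0) in each library of the 3 groups (points), with the mean and SD beside them. Injury lies above Sham in all 6 pairs. Sacral NC overlaps Sham in 5 of them, and P4ha1 over P4ha2, at 2.75 to 3.55, stays above the Sham values of 2.15 to 2.40.

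The substrates moved further than most of their enzymes. Of 10 listed substrate genes (9 collagen chains and Eln) 9 rose in Injury, against 3.09% of all genes tested, and 0 fell, against 1.34%. Their median log2 change was 2.06, and 9 fell in Sacral NC against Injury, against 3.70% of all genes. Col1a1, the main chain of fibrillar collagen, rose 7.18-fold, Col1a2 5.67-fold and Eln 4.69-fold, while Col3a1 rose 2.81-fold. Reads of Serpinh1 per 1000 Col1a1 reads were 56.7, 73.5 and 60.1 in Sham, 21.6, 22.3 and 20.3 in Injury and 155.3, 44.2 and 73.9 in Sacral NC. The ratio to Col1a1 was lower in all Injury than in all Sham libraries for 33 of 33 members, but so it was for 97.9% of all genes, so this is no result about the members. Loxl2 was 7.59, 11.7 and 8.55 per 1000 Col1a1 reads in Sham and 5.42, 4.74 and 5.11 in Injury.

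A list of 45 other genes of collagen maturation, of which 42 were found and 40 tested, was read beside the members. In Injury against Sham 11 of 40 were higher, against 3.09% of all genes tested, and 0 lower, against 1.34% (median log2 change 0.30). In Sacral NC against Injury 13 were lower, against 3.70%, and 1 higher, against 3.26% (median −0.33). As for all genes tested, 0 were called in Sacral NC against Sham. Ppic, cyclophilin C, rose from 122.7, 111.1 and 132.3 CPM to 285.1, 265.8 and 304.1 and was 109.7, 126.5 and 111.9 in Sacral NC (log2 changes 1.22 ± 0.10 and −1.30 ± 0.10, adjusted p = 0.00330 and 0.00209). Fkbp7, another isomerase of the endoplasmic reticulum, rose 1.80-fold and fell to 0.640, and Fkbp11 rose 2.49-fold. Adamts14, a procollagen N-proteinase, rose 5.55-fold from a low level of 0.624 to 0.664 CPM in Sham. Kdelr1, of the same receptor family as Kdelr3, rose 1.44-fold, and Kdelr2 and the outer coat gene Sec31a fell to 0.613 and 0.643 of Injury in Sacral NC. Ctsk, the collagen-degrading cathepsin K, rose 1.86-fold and fell to 0.551. The 1 gene higher in Sacral NC than in Injury was Tgm2, a transglutaminase, at 1.81-fold.

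Called markers were found in some of the cell type lists only. In Injury against Sham, 0 markers were called for smooth muscle, pericytes, Schwann cells, skeletal muscle, macrophages or adipocytes. The list for chondrocytes and bone also had 0, that for epithelium had 1 of 4 higher, and 0 lymphocyte markers passed the filter. Of the 8 fibroblast markers, the 2 collagen I chains and Thy1 rose in Injury, against 3.09% of all genes tested. The other 5 did not pass. Summed over the 6 markers other than the collagen I chains, the level was 7803 to 10848 CPM in Sham, 5469 to 7653 in Injury and 7170 to 13334 in Sacral NC. Most of this sum was Dcn, at 6186 to 8682 CPM in Sham and 3884 to 5497 in Injury (log2 change −0.73 ± 0.26, adjusted p = 0.154), while Thy1 rose 2.21-fold. All 4 cell cycle markers rose in Injury, against 3.09% of all genes, and fell in Sacral NC against Injury, against 3.70%. Their summed levels were 17.5 to 28.9 CPM in Sham, 69.2 to 129.4 in Injury and 10.4 to 16.8 in Sacral NC. Of 6 endothelial markers 3 fell in Injury, against 1.34% of all genes, and 4 rose in Sacral NC against Injury, against 3.26%. Their sums were 1095 to 1218 CPM in Sham, 598.3 to 735.7 in Injury and 1005 to 1595 in Sacral NC. No marker of the fibroblast, cell cycle and endothelial lists was at 0 in any library. Their part in the members' changes was not tested, and in whole tissue, fewer cells of a type and less RNA per cell cannot be told apart.

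Members also varied by library within Injury. Injury 2 was the highest of its group for 20 of 33 members and Injury 3 for 11, while Injury 1 was the lowest for 26. In Sacral NC, library 2 was the highest for 15 members and the lowest for 14. These orders were not counted over all genes, so they are no result about the members. The authors' deposited table for Sham over Injury has an adjusted p under 0.05 for 23 members, all lower in Sham, and that for Sacral NC over Injury has 25 lower and 1 higher. For Sacral NC over Sham the authors' deposited table has 0. For all 33 members the log2 changes and adjusted p-values in the authors' deposited table matched the DESeq2 alternative within 0.001 and 0.1%, so its calls are not separate evidence. Over all genes, DESeq2 called 1012 higher and 569 lower of 15770 in Injury against Sham. In Sacral NC against Injury, DESeq2 called 1201 higher and 1074 lower of 15364.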

How the data were processed

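RNA of 9 libraries was analysed. Read counts per gene were deposited by the authors in 3 tables, each with the authors' log2 fold changes, p-values and adjusted p-values for a comparison; no source names the test, but for the members the values match DESeq2 run here on the 9 libraries. HISAT2 2.0.5 and the mouse build GRCm38.p6 are named in the submitters' processing notes, and the organism label names mouse, but all 21124 identifiers are rat Ensembl identifiers. Positions are those of the deposited tables, and their rat build, strand setting and counting tool were not given in sources used here. Positions of 11 members overlap another gene, so their counts are uncertain. Shared libraries had identical counts in each table, and no libraries of a group agreed within sampling noise. Nothing names separate animals, so p-values measure the spread between these libraries. Planned levels per length, protein ends and promoter motifs were not run, since only a mouse reference was at hand.

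The test across all genes was that of edgeR 4.0.16 (R 4.3.3) on the counts (TMM scaling, default low-count filter, robust quasi-likelihood F-test, 9 libraries in 1 fit with 6 residual degrees of freedom). Adjusted p is Benjamini-Hochberg over 15509 genes, called under 0.05. SE comes from the F statistic, and SD is over 3 libraries. DESeq2 1.42.0 and other settings were alternatives. All members are reported, and of the other maturation genes up to 6 called per comparison with the smallest p are named; Tgm2 and the comparison of related genes were chosen after values were seen. Members and lists were chosen with earlier results of these data known.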

Additional observations from a re-analysis of the deposited data

How the results depend on the processing

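For Injury against Sham, 14 to 24 members were called under the 8 alternatives to scaling, filter, tool, covariates and samples, and leaving out single libraries gave 0 to 24. Without the 4 libraries rich in muscle reads 0 were called. For Sacral NC against Injury 13 to 26 were called under 7 of those 8 alternatives, leaving out single libraries gave 7 to 19, only the 2 groups compared gave 6, and leaving out the muscle-rich libraries gave 1. The cause was not tested. Sacral NC against Sham had 0 members called in each setting run. No called member changed sign in any of the 18 alternatives. Summing Col1a1, Col1a2 and Col3a1 in place of Col1a1 gave 32 members with a lower ratio in all Injury than in all Sham libraries. The share of all genes was not given for this sum, so it is no result about the members either. With the replicate number as a block 14 and 13 members were called in the first and second comparison. Same-numbered libraries did not all deviate together (correlations −0.55 to 0.62, against −0.66 to 0.60 for differently numbered libraries of different groups). Whether the numbers mark pairs or batches cannot be told from this, and the labels do not say. Over all genes, Injury against Sham had 479 higher and 208 lower calls, 889 and 567 with only the 2 groups, 1012 and 569 with DESeq2, and 200 and 67 with the block. Sacral NC against Injury had 506 and 574, then 67 and 172 with only the 2 groups, 1201 and 1074 with DESeq2, 190 and 281 with the block, and 180 and 303 with the muscle score. Levels per length were not run.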
